A study of Mus musculus with 6 samples.

Results

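The genes described here encode the machinery of DNA replication and of mitosis, 53 in all, chosen by name from the 24060 genes of the deposited count table. Of these, 28 act in S phase, when DNA is copied, and 25 act in M phase, when the copies are separated. They were measured by RNA-seq in retinal ganglion cells (RGCs), the neurons whose axons form the optic nerve, taken from C57BL/6 mice at embryonic day 18 (E18, replicates 1, 3 and 4) and postnatal day 5 (P5, replicates 6, 8 and 9). No mutation, transgene or drug is named for either age. At both ages the cells were dissociated with papain, cleared of macrophages with antibodies and then held on dishes coated with antibodies against CD90 (Thy1), a procedure called immunopanning. The count column taken as E18 replicate 1 is labelled with 1, 2 and 5, and a pool of several isolations behind it is neither stated nor denied. The sources used here also do not say whether samples of one age came from separate animals, so the p-values measure the spread between these samples, which may be partly technical. The labels name polyA RNA, whereas the protocol names depletion of ribosomal RNA.

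As background, replication begins when the loading factors Cdc6 and Cdt1 place the Mcm2-7 helicase on DNA in G1, and Cdc45 and the GINS complex then switch the helicase on. A primase and polymerase alpha start each strand, the clamp loader Rfc seats the sliding clamp Pcna, and the longer-running polymerases copy the rest, with Fen1 and Lig1 joining the pieces of the lagging strand. Mitosis is driven by Cdk1 with its cyclins, checked at the kinetochores where chromosomes meet the spindle, and ended by cytokinesis at the spindle midzone. S-phase genes are classically driven by E2F factors, and many mitotic genes are held down outside the cycle by the DREAM complex through a promoter element called CHR. RGCs are born in the embryo from dividing retinal progenitors and do not divide again. Several S-phase proteins, among them Pcna, Rfc, Rpa, Fen1 and Lig1, also serve DNA repair in cells that do not divide.

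Counts on genes summed to between 81213639 and 114512853 per sample. Values are counts per 1000000 (CPM) on library sizes normalised by TMM, and they are listed in the order E18 replicates 1, 3 and 4, then P5 replicates 6, 8 and 9. RGC markers were abundant in every sample, with a summed level over 9 genes of 4899 to 5849 CPM at E18 and 5942 to 7409 CPM at P5. Singly, 2 of these 9 (22.2%) were higher and 3 lower at E18. The 13 markers of retinal progenitors, the dividing cells from which RGCs come, summed to 189, 130 and 32.7 CPM at E18 and to 25.9, 30.2 and 21.8 CPM at P5. Of these 13, 7 (53.8%) were higher at E18, where 20.8% of all genes tested were higher and 22.5% lower. The 6 amacrine markers summed to 77.7, 170 and 10.1 CPM at E18 and 10.9 to 14.6 CPM at P5. Of the 4 of them that were tested, 2 were higher at E18. The 6 photoreceptor markers summed to 18.9, 7.50 and 2.43 CPM at E18 and 2.31 to 3.80 CPM at P5. Of the 5 of them that were tested, 2 were higher and 1 was lower at E18. The 7 markers of endothelial cells and pericytes summed to 72.2, 64.4 and 16.3 CPM at E18 and 14.3 to 17.5 CPM at P5, and of the 6 of them that were tested, 1 was higher and 3 were lower at E18. The gene that was higher, Kdr, made up most of the E18 sum, at 69.5, 62.9 and 14.1 CPM, and Cdh5 had no count in 3 of the 6 samples. The 6 astrocyte markers summed to 4.69 to 7.37 CPM and the 7 markers of microglia and macrophages to 1.23 to 2.31 CPM over both ages. Of these, 4 astrocyte markers and 6 of microglia and macrophages were tested. Gfap and Tyrobp were among those too low to be tested.

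At E18, 24 of the 53 genes were higher than at P5, and the 3 E18 samples carried the excess unequally. All 53 genes passed the expression filter. Of the 28 S-phase genes, 13 (46.4%) were higher at E18 by the quasi-likelihood test of edgeR with Benjamini-Hochberg (BH) adjustment over all 16449 genes tested, and of the 25 M-phase genes 11 (44.0%) were higher. Among all genes tested, 20.8% were called higher at E18 and 22.5% lower. No member was called lower by edgeR's quasi-likelihood test, its exact test or DESeq2, and at an unadjusted p under 0.05 the first of these counted 1 S-phase gene (Pole) and 0 M-phase genes as lower. The median log2 fold change of E18 over P5 was 0.57 for the S-phase genes and 0.98 for the M-phase genes, against 0.0047 for all genes tested. In bulk RNA, more cells of a type and more RNA in each cell cannot be told apart.

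The per-sample values separated the phases. Summed over the 28 S-phase genes, the level was 697, 538 and 476 CPM at E18 and 406, 443 and 377 CPM at P5. Summed over the 25 M-phase genes, it was 424, 154 and 85.4 CPM at E18 and 109, 124 and 106 CPM at P5. Every E18 sample thus lay above every P5 sample for the S-phase sum, whereas for the M-phase sum E18 replicate 1 lay 3.74-fold above the P5 mean, replicate 3 lay 1.35-fold above it and replicate 4 lay below all 3 P5 samples. The summed progenitor markers ranked the E18 samples in the same order, as did 10 of the 13 markers singly and 15.4% of all genes tested. The summed photoreceptor markers and the summed endothelial and pericyte markers had this order too. The summed RGC markers had the reverse order, at 4899, 5067 and 5849 CPM, and the sums of the other marker lists had other orders. The part of progenitors or of any other cells in the levels of the members was not tested.

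**Figure D1:**
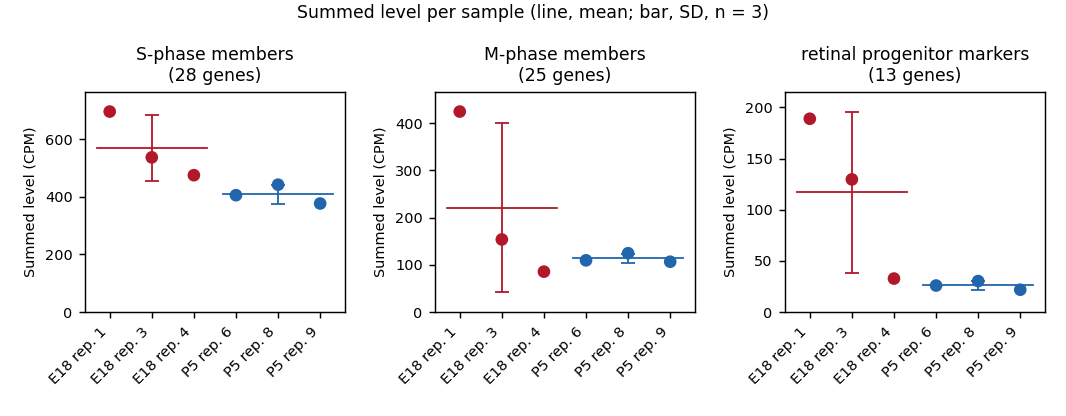
Summed level in CPM (vertical axis, from 0) of the 28 S-phase genes, the 25 M-phase genes and the 13 retinal progenitor markers in each of the 6 samples, with 1 point a sample, a line for the mean of each age and a bar for the SD (n = 3). The S-phase sum lay above P5 in all 3 E18 samples (697, 538 and 476 against 377 to 443 CPM), while the M-phase sum of E18 replicate 4 (85.4 CPM) lay below the 3 P5 samples.

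Within E18, replicate 1 was the highest of the 3 samples for 27 of 28 S-phase genes and for all 25 M-phase genes, against 27.6% of all genes tested. The full order of replicate 1 over 3 over 4 held for 25 S-phase and 24 M-phase genes, and for 15.4% of all genes. The ratio of replicate 1 to replicate 4 was a median of 1.57-fold over the S-phase genes (range 1.06 to 17.6) and 4.19-fold over the M-phase genes (range 1.52 to 26.8). Relative to the P5 mean, the median log2 ratio of the S-phase genes was 0.91, 0.42 and 0.22 in E18 replicates 1, 3 and 4, and that of the M-phase genes was 1.66, 0.70 and -0.17. In replicate 4, 13 S-phase genes lay above the P5 range, 7 within it and 8 below it, and for M-phase genes the counts were 4, 10 and 11. Among all genes tested, 35.7% lay above the P5 range in that sample and 35.7% below it.

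**Figure D2:**
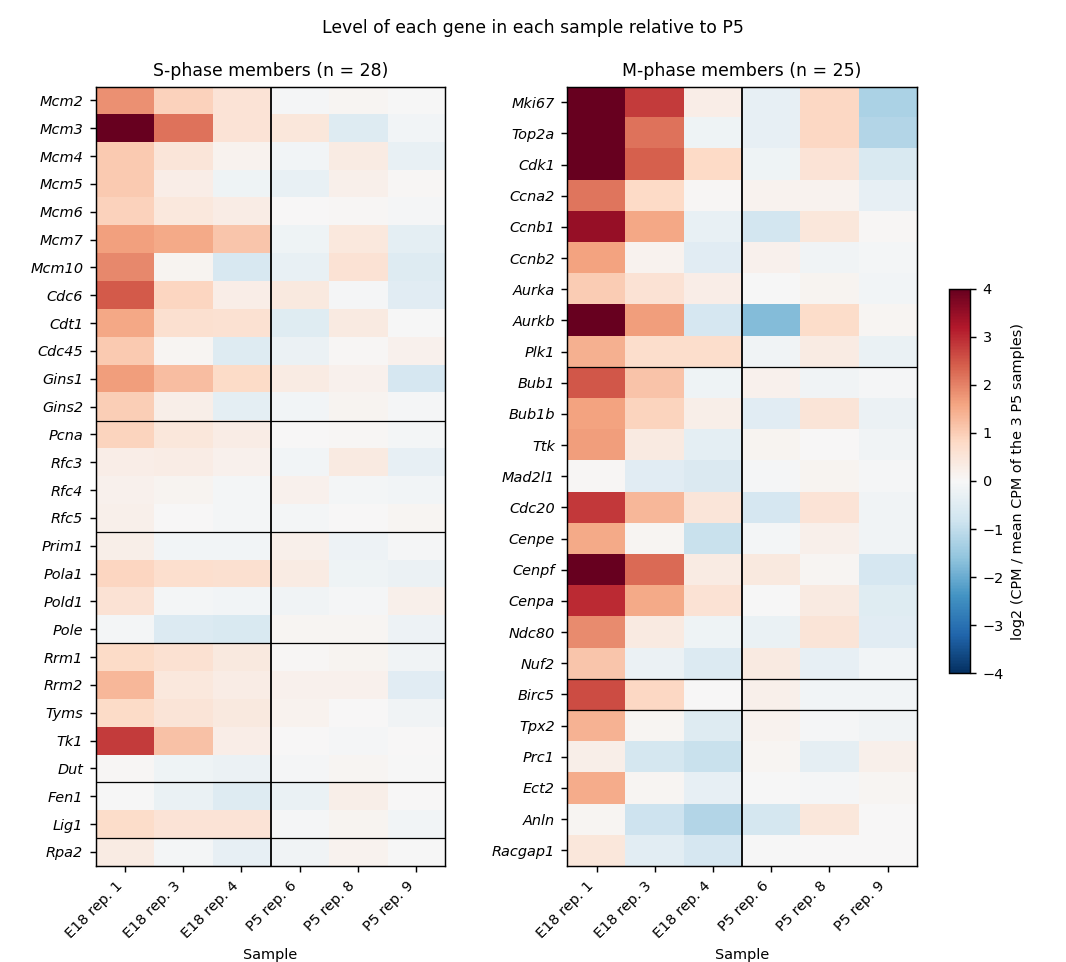
Level of each of the 53 genes in each sample as log2 of its CPM over the mean CPM of the 3 P5 samples, coloured from -4 to 4 with values beyond 4 drawn in the darkest red, for S-phase genes (left) and M-phase genes (right). Horizontal lines mark changes of function down the list, and for the M-phase genes the column of E18 replicate 1 is the reddest and that of replicate 4 mostly pale or blue. Mcm7, Gins1, Pola1 and Lig1 lie on the red side in all 3 E18 columns, faintly for Pola1 and Lig1, as do Cdk1 and Plk1 among the M-phase genes.

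Genes that license and open replication origins carried most of the S-phase difference. Of these 12, 7 (58.3%, against 20.8% of all genes tested) were higher at E18, with a median log2 fold change of 0.93. In all 12 the E18 samples ranked 1, 3, 4 from the highest down. Mcm2, a subunit of the helicase, stood at 22.3, 11.9 and 9.19 CPM at E18 and at 6.10, 6.62 and 6.27 CPM at P5. The lowest E18 sample lay above the highest P5 sample, and the log2 fold change was 1.19 ± 0.29 (SE; edgeR BH-adjusted p = 0.0115). Mcm7, another subunit, stood at 65.7, 59.9 and 45.5 CPM at E18 and 18.6, 28.3 and 16.1 CPM at P5. All 3 E18 samples were well apart from P5, with a log2 fold change of 1.44 ± 0.22 (edgeR BH-adjusted p = 0.00148), although part of the Mcm7 exons overlap another gene. Mcm6 stood at 64.2, 45.1 and 41.2 CPM at E18 and 33.6, 34.9 and 32.3 CPM at P5, a smaller difference without overlap (log2 fold change 0.58 ± 0.16, edgeR BH-adjusted p = 0.0193).

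Mcm3, of the same helicase, had the largest fold change of the S-phase genes and leaned on a single sample. Its levels were 14.8, 2.59 and 0.839 CPM at E18 and 0.790, 0.406 and 0.542 CPM at P5, so that replicate 4 lay just above the P5 samples and replicate 1 lay 25.5-fold above their mean. The log2 fold change was 3.39 ± 0.92 (edgeR BH-adjusted p = 0.0175), and 1.58 without E18 replicate 1 (edgeR BH-adjusted p = 0.0387). Mcm5 stood at 20.2, 11.6 and 8.63 CPM at E18 and 7.88, 11.1 and 10.1 CPM at P5. Its ages overlapped, and the log2 fold change of 0.47 did not pass (edgeR BH-adjusted p = 0.211, 95% interval -0.18 to 1.13). Mcm4, the remaining subunit, had 37.0, 24.8 and 19.6 CPM at E18 and 16.5, 22.6 and 14.6 CPM at P5, with a log2 fold change of 0.60 that did not pass either (edgeR BH-adjusted p = 0.0751). The 6 subunits of the ring, which assemble in equal numbers, thus had log2 fold changes of 0.47 to 3.39.

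Both loading factors were called higher. Cdc6 stood at 6.09, 2.03 and 1.35 CPM at E18 and 1.44, 1.08 and 0.819 CPM at P5. Replicate 4 lay within the P5 range, and the log2 fold change was 1.5 ± 0.53 (edgeR BH-adjusted p = 0.0459), the only call of an S-phase gene whose ages overlapped. Cdt1, its partner in loading, stood at 6.08, 3.24 and 3.17 CPM at E18 and 1.5, 2.70 and 2.05 CPM at P5, with no overlap (log2 fold change 0.99 ± 0.32, edgeR BH-adjusted p = 0.0346). Of the factors that switch the helicase on, Gins1 stood at 6.02, 4.47 and 3.25 CPM at E18 and 2.37, 2.14 and 1.20 CPM at P5. It too was apart in every sample, with a log2 fold change of 1.26 ± 0.32 (edgeR BH-adjusted p = 0.0125). Gins2, from the same complex, had a log2 fold change of 0.38, Cdc45 of 0.34 and the initiation factor Mcm10 of 0.86, and none of these passed. Reads on Gins2 are uncertain, since 67.3% of its exon bases are shared with Gse1.

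Some promoters of these genes, such as those of Mcm6 and Mcm5, hold words that E2F factors are known to bind. In others, such as that of Mcm2, none of the E2F words searched was found, which does not exclude other E2F sites. Windows of 180 bases before the RefSeq transcription start (GRCm38.p6) are given for Mcm6, which passed the test, and Mcm5, which did not, since both hold overlapping E2F words. Sequences read 5′ to 3′ on the strand of the gene, and capitals mark an E2F word (TTTCCCGC, TTTGGCGC, TTTCGCGC or TTTGCCGC) or a CCAAT word, on either strand. Mcm6 lies on the minus strand at chr1:128359706-128359885 and Mcm5 on the plus strand at chr8:75109329-75109508.
Mcm6: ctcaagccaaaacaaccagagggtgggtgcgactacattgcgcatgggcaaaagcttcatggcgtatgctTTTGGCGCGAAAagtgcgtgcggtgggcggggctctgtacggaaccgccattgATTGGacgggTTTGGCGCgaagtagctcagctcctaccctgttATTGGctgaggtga
Mcm5: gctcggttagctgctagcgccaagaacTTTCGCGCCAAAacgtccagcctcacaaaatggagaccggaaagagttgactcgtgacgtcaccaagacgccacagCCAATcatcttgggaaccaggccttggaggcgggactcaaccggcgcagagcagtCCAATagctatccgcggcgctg
In Mcm6, E2F words began at bases -110, -106 and -47 from the start, and the first 2 of them overlap on opposite strands. In Mcm5, an overlapping pair began at -153 and -149. Both promoters also hold CCAAT words, at -57 and -14 in Mcm6 and at -77 and -22 in Mcm5.

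Genes that copy DNA behind the helicase were called at shares closer to that of all genes, 20.8%. Among the clamp, the clamp loader and the single-strand binding protein, 1 of 5 genes (20%) was higher, and the median log2 fold change was 0.06. Pcna, the sliding clamp, stood at 70.6, 51.8 and 47.2 CPM at E18 and 38.3, 39.5 and 36.4 CPM at P5, with no overlap and a log2 fold change of 0.57 ± 0.15 (edgeR BH-adjusted p = 0.0145). Per kilobase of transcript it had the highest level of all members with a known length, 37.2 CPM per kb at E18 and 25.1 at P5. None of the 3 clamp loader subunits passed. Rfc4 stood at 9.64, 9.23 and 8.25 CPM at E18 and 9.81, 8.15 and 7.98 CPM at P5, with a log2 fold change of 0.06 (95% interval -0.26 to 0.39). Rfc5 had 16.8, 14.9 and 13.8 CPM at E18 and 13.9, 14.7 and 15.4 CPM at P5. Both overlapped between the ages, as did Rfc3 at 30.9 to 33.9 CPM at E18 and 21.8 to 35.5 CPM at P5. Rpa2, which coats single-stranded DNA, stood at 14.9, 11.3 and 9.37 CPM at E18 and 10.7, 13.2 and 11.6 CPM at P5, with a log2 fold change of -0.0015 (95% interval -0.41 to 0.41).

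Polymerases and the enzymes of the lagging strand split by gene. Of these 6, 2 (33.3%, against 20.8% of all genes tested) were higher, and the median log2 fold change was 0.09. Pola1, the catalytic subunit of polymerase alpha that extends the primer, stood at 35.9, 31.6 and 30.7 CPM at E18 and 24.9, 17.6 and 16.8 CPM at P5. The E18 samples lay close together above P5, with a log2 fold change of 0.73 ± 0.16 (edgeR BH-adjusted p = 0.00739). Prim1, the primase that works in the same complex, stood at 24.3, 19.1 and 19.3 CPM at E18 and 24.0, 18 and 20.1 CPM at P5, with full overlap and a 95% interval of the log2 fold change from -0.32 to 0.35. Lig1, the ligase that seals the lagging strand, stood at 55.6, 48.2 and 48.9 CPM at E18 and 32.3, 36.1 and 31.0 CPM at P5. It was apart in all samples (log2 fold change 0.62 ± 0.10, edgeR BH-adjusted p = 0.00236), and part of its exons are shared with another gene. Fen1, the nuclease that trims the same fragments, stood at 17.2, 14.5 and 12.3 CPM at E18 and 14.5, 20.5 and 17.7 CPM at P5, and its log2 fold change of -0.26 did not pass. Pold1, the catalytic subunit of polymerase delta, stood at 13.5, 8.39 and 8.33 CPM at E18 and 8.06, 8.58 and 10.2 CPM at P5, with overlap. Pole, that of polymerase epsilon, stood at 21.5, 15.6 and 14.9 CPM at E18 and 24.1, 24.1 and 19.9 CPM at P5, and its log2 fold change of -0.39 was not called (edgeR BH-adjusted p = 0.0776). Without E18 replicate 1 it was, as lower at E18, with a log2 fold change of -0.57 (edgeR BH-adjusted p = 0.0244).

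Nucleotide supply was higher at E18 in 3 of 5 genes (60.0%, against 20.8% of all genes tested), with a median log2 fold change of 0.59. Rrm1, the large subunit of ribonucleotide reductase, stood at 66.4, 60.5 and 51.1 CPM at E18 and 40.6, 41.9 and 35.4 CPM at P5, with a log2 fold change of 0.59 ± 0.12 (edgeR BH-adjusted p = 0.00528). Its partner Rrm2, the small subunit that is normally made in S phase, stood at 14.1, 7.43 and 6.84 CPM at E18 and 6.32, 6.37 and 4.12 CPM at P5. Its ages did not overlap, but the log2 fold change of 0.76 ± 0.30 did not pass (edgeR BH-adjusted p = 0.0687). Tyms, which makes thymidylate, stood at 9.54, 8.12 and 7.43 CPM at E18 and 6.16, 5.64 and 5.09 CPM at P5 (log2 fold change 0.57 ± 0.16, edgeR BH-adjusted p = 0.0193). Tk1, which salvages thymidine, stood at 2.83, 0.928 and 0.497 CPM at E18 and 0.417, 0.396 and 0.415 CPM at P5. Replicate 1 lay 6.92-fold and replicate 4 1.21-fold above the P5 mean, and the log2 fold change was 1.79 ± 0.57 (edgeR BH-adjusted p = 0.0338). Dut, which clears dUTP, stood at 29.6 to 36.1 CPM at E18 and 33.5 to 36.7 CPM at P5.

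Among mitotic kinases, cyclins and chromatin proteins, 6 of 10 (60.0%, against 20.8% of all genes tested) were higher at E18. Their median log2 fold change was 1.93, the largest of the 7 functional groups of members. Mki67, the proliferation marker that coats mitotic chromosomes, stood at 68.7, 16.2 and 2.84 CPM at E18 and 1.87, 4.17 and 0.967 CPM at P5. Replicate 4 lay within the P5 range, and the log2 fold change of 3.64 ± 1.01 (edgeR BH-adjusted p = 0.0192) was the largest of all 53 genes. Its level varied 4.32-fold among the P5 samples themselves. Top2a, which untangles sister DNA, stood at 88.7, 22.5 and 4.43 CPM at E18 and 3.96, 8.81 and 2.21 CPM at P5. It ranked the E18 samples the same way with the same overlap, and had a log2 fold change of 2.94 ± 0.93 (edgeR BH-adjusted p = 0.0319). Cdk1, the kinase that starts mitosis, stood at 9.98, 2.37 and 0.784 CPM at E18 and 0.406, 0.660 and 0.298 CPM at P5. Here replicate 4 stayed above P5, and the log2 fold change was 3.26 ± 0.83 (edgeR BH-adjusted p = 0.0135).

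Cyclin B1, which activates Cdk1, is encoded by Ccnb1 and stood at 9.49, 2.46 and 0.685 CPM at E18 and 0.508, 1.15 and 0.882 CPM at P5 (log2 fold change 2.31 ± 0.80, edgeR BH-adjusted p = 0.0436). Ccna2 (cyclin A2) had a log2 fold change of 1.25 just outside the threshold (edgeR BH-adjusted p = 0.0503), and Ccnb2 (cyclin B2) had 0.71. Aurkb, the kinase of the chromosomal passenger complex, stood at 5.03, 0.954 and 0.188 CPM at E18 and 0.0902, 0.498 and 0.319 CPM at P5. It was 26.8-fold higher in E18 replicate 1 than in replicate 4 and had 8 reads in its lowest sample, and its log2 fold change of 2.75 ± 1.03 did not pass (edgeR BH-adjusted p = 0.0582). Birc5 (survivin), of the same complex, stood at 6.70, 1.94 and 1.13 CPM at E18 and 1.27, 1.03 and 1.02 CPM at P5, and did not pass (log2 fold change 1.55, edgeR BH-adjusted p = 0.0556). Plk1, a kinase of mitotic entry, stood at 3.54, 2.17 and 2.19 CPM at E18 and 1.22, 1.67 and 1.11 CPM at P5. Unlike most mitotic genes it was apart from P5 in all 3 E18 samples (log2 fold change 0.98 ± 0.28, edgeR BH-adjusted p = 0.0215), as was Aurka, the spindle pole kinase (0.65 ± 0.21, edgeR BH-adjusted p = 0.0362). With Cdk1 and Cenpa, these were the 4 of 25 M-phase genes with every E18 sample above every P5 sample, which held for 13 of 28 S-phase genes and for 27.6% of all genes tested.

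The promoters of the 3 leading mitotic genes are shown for the words of the DREAM complex. Windows are again of 180 bases before the RefSeq start, and capitals mark an E2F word, a CCAAT word or a CHR word, which is TTTGAA or alternatively the palindrome TTCGAA. All 3 genes lie on the minus strand, Mki67 at chr7:135716380-135716559, Top2a at chr11:99024190-99024369 and Cdk1 at chr10:69352913-69353092.
Mki67: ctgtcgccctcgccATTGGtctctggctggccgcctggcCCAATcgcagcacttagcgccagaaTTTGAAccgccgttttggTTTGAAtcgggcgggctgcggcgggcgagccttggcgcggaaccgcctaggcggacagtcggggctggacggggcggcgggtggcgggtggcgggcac
Top2a: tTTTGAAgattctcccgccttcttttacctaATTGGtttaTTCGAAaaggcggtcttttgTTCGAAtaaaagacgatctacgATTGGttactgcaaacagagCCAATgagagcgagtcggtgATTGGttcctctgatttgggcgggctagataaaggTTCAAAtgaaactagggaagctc
Cdk1: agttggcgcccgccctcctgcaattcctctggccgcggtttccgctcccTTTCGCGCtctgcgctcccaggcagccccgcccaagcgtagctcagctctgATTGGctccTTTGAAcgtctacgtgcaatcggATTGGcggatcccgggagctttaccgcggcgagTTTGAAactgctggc
Each of the 3 windows holds more than 1 CHR word, at -116 and -98 in Mki67, at -71 and -15 in Cdk1 and at -179, -140, -120 and -23 in Top2a, where the middle pair reads the same on both strands. CCAAT words stand in all 3, and Cdk1 alone of the 22 M-phase genes with a promoter also holds an E2F word, at -131.

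Of the checkpoint and kinetochore genes, 5 of 10 were higher at E18, with a median log2 fold change of 0.99. Cdc20, which turns on the anaphase-promoting complex, stood at 6.18, 2.20 and 1.23 CPM at E18 and 0.553, 1.29 and 0.787 CPM at P5 (log2 fold change 1.86 ± 0.58, edgeR BH-adjusted p = 0.0291). Cenpf, a kinetochore protein, stood at 24.1, 7.13 and 1.86 CPM at E18 and 1.93, 1.56 and 0.935 CPM at P5, with a log2 fold change of 2.90 ± 0.78 (edgeR BH-adjusted p = 0.0167). In both, replicate 4 lay within the P5 range. Cenpa, the histone of the centromere, stood at 3.79, 1.35 and 0.707 CPM at E18 and 0.474, 0.609 and 0.340 CPM at P5, without overlap (2.03 ± 0.57, edgeR BH-adjusted p = 0.0208). Bub1b, a kinase-like part of the spindle checkpoint, stood at 14.5, 8.80 and 5.68 CPM at E18 and 3.49, 6.85 and 4.03 CPM at P5, and passed narrowly (log2 fold change 1.01 ± 0.36, edgeR BH-adjusted p = 0.0491), as did its relative Bub1 (1.54 ± 0.55, edgeR BH-adjusted p = 0.0498).

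The other 5 of this group did not pass. Cenpe, the kinetochore motor, stood at 17.5, 6.37 and 3.31 CPM at E18 and 5.74, 7.04 and 5.50 CPM at P5, so that replicate 1 lay above and replicate 4 below every P5 sample (log2 fold change 0.57). Ndc80, which grips microtubules, stood at 5.97, 2.09 and 1.45 CPM at E18 and 1.36, 2.33 and 1.18 CPM at P5 (log2 fold change 0.96). Its partner Nuf2 stood at 6.11, 2.4 and 1.94 CPM at E18 and 3.63, 2.26 and 2.66 CPM at P5 (log2 fold change 0.29). Mad2l1, the checkpoint protein that holds Cdc20 back, stood at 9.99, 7.09 and 6.57 CPM at E18 and 9.33, 10.4 and 9.40 CPM at P5, with a log2 fold change of -0.30 (95% interval -0.71 to 0.11). The kinase Ttk had a log2 fold change of 0.79.

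Among the 5 genes of the spindle midzone and cytokinesis, 0 passed in either direction by edgeR, as at an unadjusted p under 0.05 and by DESeq2, with a median log2 fold change of -0.13. Prc1, which bundles midzone microtubules, stood at 20.4, 10.8 and 9.33 CPM at E18 and 18.6, 13.7 and 20.1 CPM at P5 (log2 fold change -0.37). Anln, the scaffold of the contractile ring, stood at 8.37, 4.46 and 3.53 CPM at E18 and 4.90, 11 and 8.13 CPM at P5 (log2 fold change -0.55). Racgap1, which guides the furrow, stood at 30.1, 16.2 and 13.8 CPM at E18 and 21.4, 22.3 and 21.9 CPM at P5 (log2 fold change -0.13). In all 3, E18 replicates 3 and 4 lay below every P5 sample while replicate 1 lay at or above the level of P5. Ect2, its partner in the furrow, and Tpx2, which nucleates spindle microtubules, had log2 fold changes of 0.63 and 0.54. All 5 lay below the P5 range in E18 replicate 4.

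**Figure D3:**
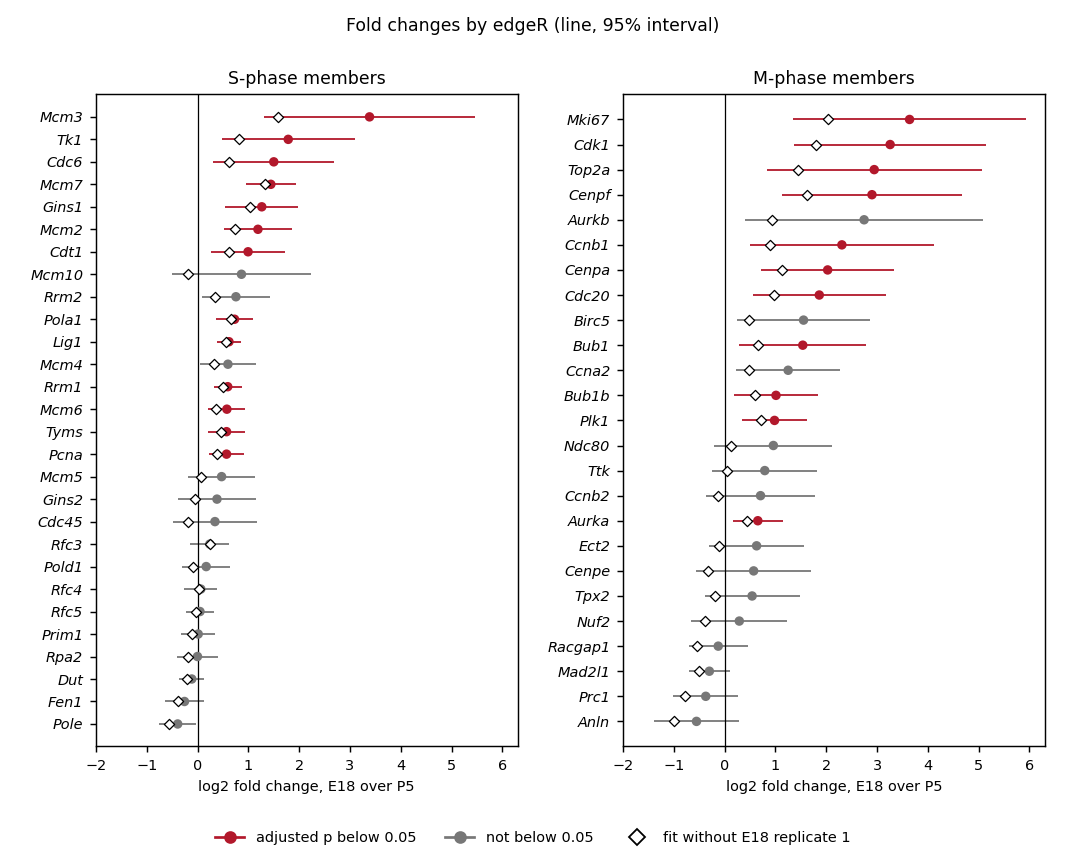
Log2 fold change of E18 over P5 for each S-phase gene (left) and M-phase gene (right) from edgeR, with a line for the 95% interval, red for a BH-adjusted p below 0.05, grey for the rest and an open diamond for the fit without E18 replicate 1. The diamonds move left for nearly all genes, from 3.64 to 2.03 for Mki67 and from 0.73 to 0.66 for Pola1.

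Leaving out E18 replicate 1 changed the calls in both phases, in a fit that also had fewer samples and called fewer of all genes. With replicates 3 and 4 against P5, 8 S-phase genes were higher (Mcm2, Mcm3, Mcm7, Gins1, Pcna, Pola1, Rrm1 and Lig1) and 1, Pole, was lower, and 2 M-phase genes were higher (Cdk1 and Cenpf) and 3 were lower (Prc1, Anln and Racgap1), where 14.1% of all genes tested were called higher and 16.4% lower. All 10 that were higher had also been called with every sample. The log2 fold changes of the 3 mitotic genes called lower were -0.79 for Prc1 (edgeR BH-adjusted p = 0.0199), -0.99 for Anln (edgeR BH-adjusted p = 0.0490) and -0.54 for Racgap1 (edgeR BH-adjusted p = 0.0251). The median log2 fold change became 0.33 over the S-phase genes and 0.47 over the M-phase genes. Leaving out P5 replicate 6 or P5 replicate 9 lowered the S-phase calls to 6 and 7 and the M-phase calls to 0 in each case by edgeR, with 6 and 9 M-phase genes higher at an unadjusted p under 0.05. The adjusted calls over all genes were also fewer in these fits, with 14.5% and 14.8% higher. The share of all genes higher at the unadjusted threshold was not counted, so the 6 and 9 have no background beside them. Leaving out E18 replicate 4 raised the calls to 15 in each phase, where 16.4% of all genes tested were higher. Over all 12 alternative settings, 5 S-phase genes were called higher in each (Mcm7, Gins1, Pola1, Rrm1 and Lig1) and no M-phase gene was. The share of all genes called higher in every setting was not counted, so there is no background to set beside these 5. In the GENCODE annotation of mm10 these 5 lie at chr5:138164583-138172422 (Mcm7), chr2:150905400-150931280 (Gins1), chrX:93304767-93632155 (Pola1), chr7:102441695-102469771 (Rrm1) and chr7:13277283-13311433 (Lig1).

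Other genes of the same pathways were read from lists that hold no member. Of 30 other replication genes, 4 (13.3%, below the 20.8% of all genes tested) were higher and 0 lower at E18 by edgeR, which also counted 0 as lower at an unadjusted p under 0.05, as did DESeq2 after adjustment, and they had a median log2 fold change of 0.22. The leading ones were Uhrf1, which copies DNA methylation onto new strands, at 25.9, 6.67 and 3.38 CPM at E18 and 1.67, 1.46 and 0.680 CPM at P5 (log2 fold change 3.24 ± 0.72, edgeR BH-adjusted p = 0.00745), Dtl, which has Cdt1 destroyed in S phase (2.91 ± 0.79, edgeR BH-adjusted p = 0.0178), and Dbf4, the activator of the origin-firing kinase Cdc7 (1.31 ± 0.28, edgeR BH-adjusted p = 0.00634). Of 40 other mitosis genes, 16 (40.0%) were higher and 2 lower, where 20.8% and 22.5% of all genes tested were. Their median log2 fold change was 1.15. Pbk, a mitotic kinase, led at 7.65, 1.40 and 0.221 CPM at E18 and 0.226, 0.244 and 0.0319 CPM at P5 (4.19 ± 1.18, edgeR BH-adjusted p = 0.0200), followed by the kinase Melk (2.52) and the phosphatase Cdc25c, which activates Cdk1 (2.27). The level of Pbk in P5 replicate 9 rested on very few reads. The 2 that were lower, named after their values were seen, were Mad1l1, the binding partner of Mad2l1 (-0.37), and Zwint, a kinetochore linker that is also abundant in neurons, at 528 to 603 CPM at E18 and 1089 to 1325 CPM at P5 (-1.08).

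Of 20 regulators from the E2F family, the DREAM complex and the FoxM1 group, 9 were higher and 2 lower at E18, with a median log2 fold change of 0.46. E2f8 and E2f7, which repress E2F targets late in S phase, and E2f2, an activator, led the list. E2f8 stood at 3.52, 0.785 and 0.177 CPM at E18 and 0.0338, 0.0609 and 0.0319 CPM at P5 (log2 fold change 5.08 ± 1.09, edgeR BH-adjusted p = 0.00631). Its P5 levels rested on very few reads, so the size of this fold change is uncertain. E2f7 was at 6.15, 5.32 and 3.84 CPM at E18 and 1.40, 2.30 and 0.957 CPM at P5 (1.72 ± 0.33, edgeR BH-adjusted p = 0.00421), and lay above P5 in all 3 samples. E2f2 had a log2 fold change of 2.51 ± 0.69 (edgeR BH-adjusted p = 0.0189).

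Promoter words were counted over all members as a description. A RefSeq promoter, from 250 bases before to 50 after the start, was matched for 24 S-phase and 22 M-phase genes. Mcm4, Gins1, Gins2, Pole, Ccna2, Aurkb and Tpx2 had no match. A gene was counted if any of its promoters held the word. An E2F word was held by 41.7% of the S-phase genes, by 4.55% of the M-phase genes and by 2.60% of all 27025 genes searched. A CHR word was held by 20.8% of the S-phase genes, 77.3% of the M-phase genes and 21.7% of all, and a CCAAT word by 58.3%, 77.3% and 41.1%. CHR and CCAAT together in the same promoter were held by 16.7%, 68.2% and 8.61%. Of the 10 S-phase genes with an E2F word, 7 were called higher, and of the 14 without one, 5 were. Of the 17 M-phase genes with a CHR word, 10 were called higher, and of the 5 without one, 1 was. For the CCAAT word these counts were 11 of 17 and 0 of 5 in M phase, and 7 of 14 and 5 of 10 in S phase. For the CHR word in S phase they were 2 of 5 and 10 of 19. The 1 M-phase gene with an E2F word was called higher, as were 10 of the 21 without one. Among all genes tested, 20.8% were called higher, and none of these splits was tested. The 3 cytokinesis genes that were lower without E18 replicate 1, Prc1, Anln and Racgap1, all hold a CHR word, as Mki67 and Top2a do. A word is a match of letters in this window and was not tested as a site.

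**Figure D4:**
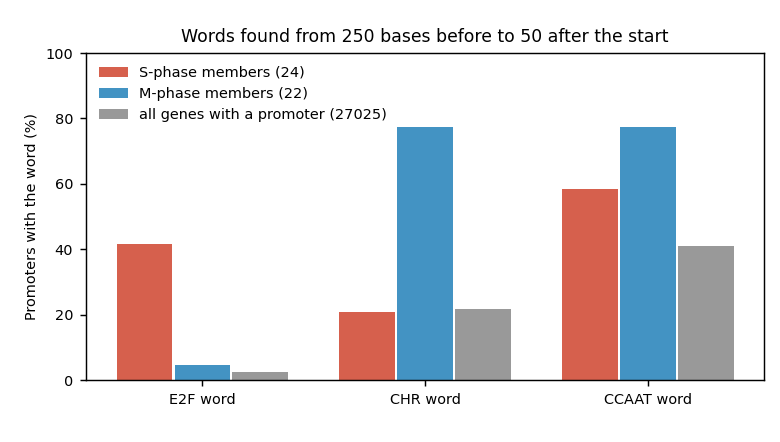
Share of genes (vertical axis, 0 to 100%) with any promoter that holds an E2F, a CHR or a CCAAT word on either strand within 250 bases before to 50 after the start, for 24 S-phase genes, 22 M-phase genes and all 27025 genes with a promoter. The E2F bar is highest for S-phase genes (41.7% against 4.55% and 2.60%) and the CHR bar for M-phase genes (77.3% against 20.8% and 21.7%).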

How the data were processed

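RNA from immunopanned RGCs was sequenced in 3 E18 and 3 P5 samples as 100-base paired-end reads. Alignment to mm10 was done by the authors with STAR and counting on RefSeq genes with HT-seq, and the submitters' processing notes also name CASAVA 1.8.2 and edgeR. Raw counts for each gene in each sample were deposited and used here. The normalized counts beside them are a signal scaled by the authors and were not used. The log2 fold changes, p-values, false discovery rates and a rank score deposited by the authors come from their own comparison and were not used. Strand and multimapped reads are not described, and 11 members share exon bases with another coding gene in the GENCODE annotation (Mcm7, Cdc45, Gins2, Rfc4, Rfc5, Tk1, Fen1, Lig1, Ccna2, Cdc20 and Prc1), so their counts are uncertain.

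The main test was edgeR's quasi-likelihood F-test (edgeR 4.0.16, R 4.3.3) after TMM normalisation, run on 16449 genes kept by filterByExpr from the 24060 listed, with Benjamini-Hochberg adjustment over all of them and a threshold of 0.05. The tests were checked on simulated counts. Totals of 81213639 to 114512853 counts per sample leave the spread between samples, rather than counting error, as the limit for all but the lowest genes. The lowest member count was 8 reads, and some genes of the other lists had fewer. Levels per kilobase use GENCODE transcripts, with a length for 52 members. Promoters were taken from RefSeq (GRCm38.p6), whose starts do not always coincide with GENCODE gene bounds.

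The alternatives were upper-quartile and RLE normalisation, the exact test, DESeq2 1.42.0, no filter, a filter of 1 CPM in 3 samples and 6 fits that each left out a sample. The members and all lists were chosen with earlier results of these data known, so no score over a list was tested. Values in every sample are given for 28 fixed members, for the 3 largest and 3 smallest fold changes of each phase and for leading calls among the 3 taken from each other list. The remaining members given by sample, and Kdr, Cdh5, Gfap and Tyrobp, were chosen after their values were seen.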

Additional observations from a re-analysis of the deposited data

How the results depend on the processing

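No paired analysis was possible because the 2 ages share no replicate number. Leaving out each sample in turn gave 6 to 15 S-phase and 0 to 15 M-phase genes called higher, 0 to 1 and 0 to 3 called lower, medians of 0.33 to 0.69 and 0.47 to 1.30, 2 to 7 other replication genes and 4 to 28 other mitosis genes called higher, 4 to 12 regulators called in either direction, and 4575 to 8796 of all genes called, against 7135 with all samples. The lowest M-phase count came from leaving out P5 replicate 6 or 9, the lowest S-phase count from leaving out P5 replicate 6, the lowest count of all genes from leaving out E18 replicate 3. Of the other settings, the filter of 1 CPM lowered the M-phase calls from 11 to 7, in part because it tested 22 of the 25, and DESeq2 raised the other replication calls from 4 to 7. The remaining counts stayed within 1.5 times their main value under those settings.

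Fold changes were recomputed for the 28 fixed members, the largest and smallest of each phase and the leading calls of the other lists. Of these values, 401 kept their direction and their side of the threshold, 62 lost the call, 14 gained it and 17 changed sign, the last in 7 genes none of which had been called. Among all members, 10 S-phase and 9 M-phase genes had negative log2 fold changes without E18 replicate 1, against 4 in each phase with all samples. Mcm10 (-0.20), Cdc45 (-0.18), Gins2 (-0.043), Ccnb2 (-0.12), Ect2 (-0.11) and Tpx2 (-0.19) turned negative in that fit. Rpa2 became positive under upper-quartile normalisation (0.012), RLE (0.0022), DESeq2 (0.0021) and no filter (0.0040). Leaving out single samples gave log2 fold changes of -0.093 to 0.29 for Pold1, -0.19 to 0.14 for Rpa2, -0.33 to 0.97 for Cenpe, -0.029 to 0.11 for Rfc5, -0.10 to 0.12 for Prim1, -0.38 to 0.58 for Nuf2 and -0.54 to 0.084 for Racgap1. The cause of these changes was not tested. The lowest count of a member was 8 reads, for Aurkb.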
